A study of Mus musculus with 8 samples.

Results

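The AP-1 and early growth response factors described here are 10 genes, Jun, Junb, Jund, Fos, Fosb, Fosl1, Fosl2, Atf3, Egr1 and Ier3, followed over 0, 6, 12 and 24 h in TTE3 cells. Every probe set whose only platform symbol was one of these names was taken, which gave 12 of 22690 probe sets, with 2 each for Jun and Fosl1. Of these, 11 probe sets of 9 genes passed the filter on low values and were tested among 13576, and Fosb did not pass it. TTE3 is a mouse Sertoli cell line from transgenic animals. Its transgene is the large T-antigen of simian virus 40 in a form that works only at low temperature. Cells were held at the nonpermissive temperature of 39 °C for 0, 6, 12 or 24 h, with 2 samples per time and 1 Affymetrix 430A array each. All groups carry the same transgene, and no group of cells without it, or kept at the permissive temperature for the same hours, was analysed here. Heat, time in culture and T-antigen state therefore cannot be told apart.

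AP-1 is a dimer of basic leucine zipper (bZIP) proteins, in which JUN proteins pair with each other or with FOS proteins and bind a short palindromic DNA element. Many of its subunits, like the zinc finger factor Egr1, are immediate early genes, whose transcription starts within minutes of serum, growth factors or stress through kinase cascades and the serum response factor. Which subunits are present sets whether AP-1 favours growth, matrix remodelling, differentiation or cell death, and in Sertoli cells these factors respond to hormone and growth factor signals.

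All arrays came with a common trimmed mean, and with medians of 138.0 to 154.3 units per array. The 2 arrays of a time correlated over probe sets with r between 0.9815 and 0.9904, and arrays of different times with r between 0.9458 and 0.9786. The number of arrays limits the precision. Of 14 Sertoli markers on the array, 8 passed the filter, among them Sox9, Wt1 and Gata4. Amh (3.5 to 13.8 units), Cldn11 (4.1 to 22.9 units) and Fshr (9.9 to 63.5 units) did not, so several defining Sertoli markers were absent from the tested probe sets. The summed Sertoli marker level was 8983.6 to 9862.3 units at 24 h, against 6499.7 to 6606.2 units at 0 h. Most of that difference was Clu, which averaged 3764.0 units at 24 h, against 1365.7 at 0 h (log2 change 1.44, adjusted p = 3.63e-05). Inhbb was called higher at 24 h (0.51, adjusted p = 0.0188, lost without 0 h replicate 1 or either 24 h array), and the other 6 did not pass there. Wt1 was called lower at 6 h (-0.64, adjusted p = 0.0446), a call lost without either 0 h array, 6 h replicate 1 or either 24 h array. Kitl and Inhbb were called higher at 6 h (0.697 and 0.657, adjusted p = 0.00757 and 0.00979). Clu and Krt18 were called higher at 12 h (0.682 and 0.389, adjusted p = 0.00658 and 0.0216). Among markers of other cell types, those that passed were 1 of 6 for germ cells (Kit), 1 of 4 for Leydig cells (Star), 2 of 5 for peritubular myoid cells, 3 of 5 for macrophages and blood and 0 of 5 for endothelium. The germ cell sum was 1320.8 to 1357.2 units at 24 h, against 359.6 to 467.4 at 0 h, and most of it was Kit, while Ddx4 stayed at 8.4 to 37.1 units. Kit was called higher at 24 h (log2 change 1.965, adjusted p = 1.36e-05). The Leydig sum was 248.0 to 326.1 units at 24 h, against 96.8 to 157.9 at 0 h. Most of that difference was Star, which averaged 258.6 units at 24 h, against 104.6 at 0 h (log2 change 1.183, adjusted p = 0.00327). Cyp11a1, Cyp17a1 and Hsd3b1 averaged 7.5, 10.4 and 10.7 units at 24 h. The macrophage and blood sum was 601.1 to 620.0 units at 24 h, against 513.9 to 596.0 at 0 h, and its marker Cd68 was called higher (log2 change 0.59, adjusted p = 0.0306, lost without 0 h replicate 1 or either 24 h array). The endothelial sum was 184.1 to 215.2 units at 24 h, against 155.9 to 176.9 at 0 h. The part of these marker changes in the results below was not tested. In bulk RNA, fewer cells that express a gene and less of its RNA per cell cannot be told apart.

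Promoter sequences, matched by symbol, were searched for 8 of the 10 genes, and Egr1 and Fosl1 were not searched. The 250 bases upstream of the start are shown for Jun, Fos and Atf3. Among the members searched, only these held a match to a bZIP motif. Any link between a match and the changes described further on was not tested. Sequences are from RefSeq, assembly GRCm38.p6, 5′ to 3′ on the strand of the gene, with the match in capitals. Jun lies at chr4:95052223-95052472 on the minus strand, Fos at chr12:85473640-85473889 on the plus strand and Atf3 at chr1:191183334-191183583 on the minus strand.
Jun: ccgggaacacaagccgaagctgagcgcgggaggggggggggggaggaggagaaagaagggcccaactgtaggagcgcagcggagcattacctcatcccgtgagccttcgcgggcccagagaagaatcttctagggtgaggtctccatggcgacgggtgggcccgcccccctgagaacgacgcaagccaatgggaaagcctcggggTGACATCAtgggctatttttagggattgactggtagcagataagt
Fos: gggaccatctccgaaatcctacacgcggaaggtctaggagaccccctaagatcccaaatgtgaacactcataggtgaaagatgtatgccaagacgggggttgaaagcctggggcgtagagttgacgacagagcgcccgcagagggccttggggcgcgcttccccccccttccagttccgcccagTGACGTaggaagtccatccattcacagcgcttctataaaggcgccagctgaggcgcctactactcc
Atf3: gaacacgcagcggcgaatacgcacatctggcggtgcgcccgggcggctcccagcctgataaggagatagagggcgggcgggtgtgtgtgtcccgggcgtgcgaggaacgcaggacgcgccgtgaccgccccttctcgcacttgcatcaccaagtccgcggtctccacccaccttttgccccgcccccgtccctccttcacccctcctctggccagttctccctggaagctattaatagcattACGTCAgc

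In Jun the capitals mark TGACATCA, 45 to 38 bases upstream of the start, a variant element that c-Jun and Atf2 dimers are known to bind. In Fos they mark TGACGT, the core of the cyclic AMP response element, 66 to 61 bases upstream. In Atf3 they mark ACGTCA, which is TGACGT read on the other strand, 8 to 3 bases upstream. Both strands were searched, and of 32851 listed promoters 2.93% held TGACATCA and 6.47% held TGACGT in the same window. The classical AP-1 element TGANTCA (6.75% of promoters) and the CArG box of the serum response factor (1.47%) were in 0 of the 8 windows. The EGR site GCGNGGGCG (4.7% of promoters) was in 2 of them, those of Fosb and Fosl2. The windows of Junb, Jund and Ier3 held none of these motifs. Sequence outside the windows was not searched for any gene, and Egr1 and Fosl1 were not searched at all. A count of 0 therefore does not show that these genes lack an AP-1 element or a CArG box. Both motifs are also rare among all promoters, so few matches would be found in 8 windows in any case. Each of the 3 windows shown held 1 match. A match describes letters only, and no binding was measured.

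Over the 4 times, 9 of the 11 tested member probe sets changed in limma's moderated F-test (adjusted p under 0.05, which is what "passed" and "called" mean throughout), where 40.1% of all tested probe sets did. Junb and Fosl2 did not pass. The count was 5 without 0 h replicate 1, without 0 h replicate 2 or without 24 h replicate 2. At 24 h Fos was higher and Fosl1 lower than at 0 h, and Jun was lower at 6 h and higher at 24 h than at 0 h. Jund, Atf3 and Ier3 were lower than at 0 h at 6 h or 12 h, with no call at 24 h against 0 h. Between later times, Jund was called higher at 24 h than at 6 h and 12 h, and Ier3 higher at 24 h than at 6 h. Egr1 was called higher at 24 h than at 12 h only. These calls of Jund, Ier3 and Egr1 were each lost with some single arrays left out. All p-values rest on the spread between the 2 samples of each time, pooled over the 4 times and moderated by a trend over all tested probe sets. This spread may be technical, since no label says that the 2 samples came from separate cultures.

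**Figure D1:**
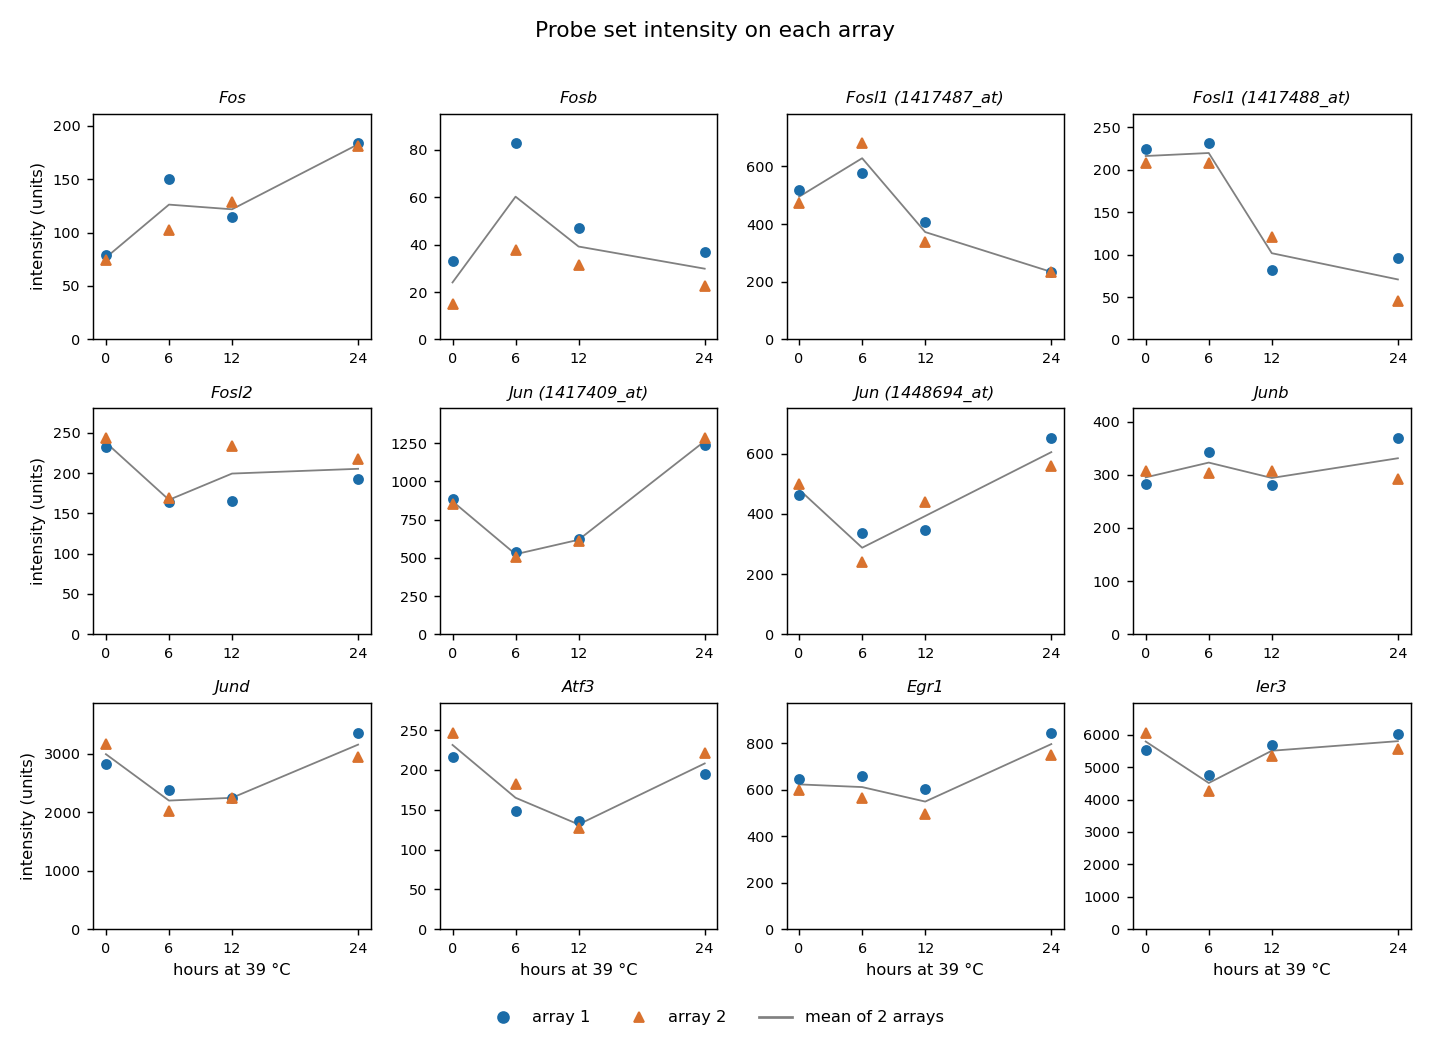
Intensity in units (vertical axes, from 0, different in each panel) of the 12 member probe sets against hours at 39 °C, with 1 symbol per array and a line through the means of 2 arrays. Fos rises to about 183 units at 24 h, both Fosl1 probe sets decline after 6 h, and Jun dips at 6 h and peaks at 24 h.

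Jun encodes c-Jun, the subunit that the JNK kinases activate and that promotes entry into the cell cycle. Its brighter probe set, 1417409_at, read 886.2 and 853.0 units at 0 h, 540.4 and 506.9 at 6 h, 624.4 and 612.0 at 12 h, and 1241.3 and 1284.8 at 24 h. The arrays of the 4 times did not overlap: 6 h was lowest, 12 h a little above it, and 24 h above 0 h. At 6 h the mean was 523.7 ± 23.7 units, against 869.6 ± 23.5 at 0 h (SD, n = 2 each), a log2 change of -0.71 ± 0.10 (standard error here and below), or 1.63-fold lower (adjusted p = 0.00118). At 12 h it was still lower than at 0 h (log2 change -0.48 ± 0.10, adjusted p = 0.00675, but 0.0668 without 0 h replicate 1). At 24 h it was 1263.1 ± 30.8 units, 1.44-fold above 0 h (log2 change 0.53 ± 0.10, adjusted p = 0.00257), and 2.36-fold above 6 h (log2 change 1.24 ± 0.10, adjusted p = 1.62e-05).

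Most of that recovery lay after 12 h. From 6 to 12 h the change of 1417409_at was 0.23 ± 0.10 (adjusted p = 0.191), while 24 h stood 2.01-fold above 12 h (log2 change 1.01 ± 0.10, adjusted p = 0.000901). The other Jun probe set, 1448694_at, read 462.8 and 498.0 units at 0 h, 334.6 and 240.0 at 6 h, 345.8 and 439.4 at 12 h, and 652.0 and 557.2 at 24 h. Its order of times was the same, with wider gaps between arrays. It was 1.64-fold lower at 6 h than at 0 h (log2 change -0.72 ± 0.17, adjusted p = 0.0152), a call that ended without 0 h replicate 1 (0.0743), 0 h replicate 2 (0.107) or 6 h replicate 2 (0.0606). At 24 h it was 2.04-fold above 6 h (log2 change 1.03 ± 0.17, adjusted p = 0.00139). Its 24 h value against 0 h did not pass (log2 change 0.32 ± 0.17, adjusted p = 0.187), nor did 24 h against 12 h (0.60 ± 0.17, adjusted p = 0.0594), which passed without 6 h replicate 1 (0.0204) or 6 h replicate 2 (0.0196). From 6 to 12 h it moved by 0.43 ± 0.17 (adjusted p = 0.146), which passed without 6 h replicate 1 (0.0458).

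Junb encodes a JUN protein that can oppose c-Jun in growth control in mouse fibroblasts. It was the flattest member, at 283.3 and 306.7 units at 0 h, 342.3 and 303.3 at 6 h, 281.3 and 306.5 at 12 h, and 369.3 and 292.6 at 24 h. The arrays of every pair of times overlapped. The highest time mean was 1.13 times the lowest (F-test adjusted p = 0.709), and the 95% interval of the 24 h against 0 h log2 change ran from -0.18 to 0.48.

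Jund encodes the JUN protein that is abundant in resting cells and slows proliferation of mouse fibroblasts. Its probe set read 2819.5 and 3166.9 units at 0 h, 2382.8 and 2016.5 at 6 h, 2251.5 and 2242.4 at 12 h, and 3360.7 and 2953.0 at 24 h. Both middle times lay below both ends, which overlapped each other. It was 1.36-fold lower at 6 h than at 0 h (log2 change -0.44 ± 0.11, adjusted p = 0.0198) and 1.33-fold lower at 12 h than at 0 h (-0.41 ± 0.11, adjusted p = 0.0226). Neither call was firm. The 6 h call ended without 0 h replicate 1 (0.0624), 0 h replicate 2 (0.168) or 6 h replicate 2 (0.0594), and the 12 h call without any of the 4 arrays compared (0.0576 to 0.183). At 24 h it was 1.43-fold above 6 h (log2 change 0.52 ± 0.11, adjusted p = 0.00643, but 0.0762 without 24 h replicate 1), and it differed from 0 h by 0.08 ± 0.11 (adjusted p = 0.65).

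Fos encodes c-Fos, the prototype immediate early protein, which is active only in a dimer with a JUN protein. Its probe set read 79.1 and 74.1 units at 0 h, 149.7 and 102.6 at 6 h, 115.0 and 128.5 at 12 h, and 183.8 and 181.4 at 24 h. Every later array lay above both 0 h arrays, and both 24 h arrays above all others. The 24 h mean was 182.6 ± 1.7 units, against 76.6 ± 3.54 at 0 h (SD, n = 2 each), 2.08-fold higher (log2 change 1.05 ± 0.21, adjusted p = 0.00302). The 6 h and 12 h values did not pass against 0 h (log2 changes 0.57 ± 0.21 and 0.54 ± 0.21, adjusted p = 0.0857 and 0.0858). The 6 h value passed without 6 h replicate 2. Without the variance trend both passed (adjusted p = 0.0488 at 6 h and 0.0459 at 12 h). At 0 h Fos lay close to the filter, which corresponds to about 74 units, and the offset of 21.9 units makes its log2 changes understate those of the intensities.

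Fosb, whose protein resembles c-Fos, was the only member below the filter. It read 33.1 and 15.0 units at 0 h, 82.9 and 37.6 at 6 h, 47.2 and 31.2 at 12 h, and 37.0 and 22.7 at 24 h. Both 6 h arrays lay above both 0 h arrays, by a margin smaller than the gap between the 6 h arrays. In the fit without the filter its 6 h against 0 h log2 change was 0.81 ± 0.37 (adjusted p = 0.238), and no difference over time was detectable (F-test adjusted p = 0.394).

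Fosl1 encodes Fra-1, a FOS protein without the activating end of c-Fos whose gene is itself a known AP-1 target. Probe set 1417487_at read 517.4 and 473.1 units at 0 h, 575.8 and 681.5 at 6 h, 408.3 and 336.7 at 12 h, and 235.3 and 233.1 at 24 h. Probe set 1417488_at read 224.8 and 207.9 units at 0 h, 231.7 and 208.1 at 6 h, 82.3 and 121.1 at 12 h, and 95.6 and 45.9 at 24 h. In both, every 12 h and 24 h array lay below every 0 h and 6 h array. At 24 h the level of 1417487_at was 234.2 ± 1.56 units, against 495.3 ± 31.3 at 0 h (SD, n = 2 each), 2.02-fold lower (log2 change -1.01 ± 0.14, adjusted p = 0.000286). For 1417488_at the 24 h level was 2.67-fold lower than at 0 h (log2 change -1.42 ± 0.26, adjusted p = 0.00191), and its 24 h arrays lay on both sides of the filter level of about 74 units.

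The decline of Fosl1 started after 6 h. Against 0 h, 6 h gave log2 changes of 0.33 ± 0.14 (1417487_at, adjusted p = 0.13) and 0.02 ± 0.26 (1417488_at, adjusted p = 0.969). At 12 h against 6 h the changes were -0.72 ± 0.14 (adjusted p = 0.0125) and -0.98 ± 0.26 (adjusted p = 0.0437). Without 12 h replicate 2 neither of them passed (0.0856 for 1417487_at), and the call of 1417488_at also ended without either 0 h, either 6 h or the other 12 h array. At 24 h both were lower than at 6 h, 2.53-fold (log2 change -1.34 ± 0.14, adjusted p = 7.46e-05) and 2.71-fold (-1.44 ± 0.26, adjusted p = 0.00252). Against 0 h at 12 h, 1417488_at passed (log2 change -0.96 ± 0.26, adjusted p = 0.0217) and 1417487_at did not (-0.40 ± 0.14, adjusted p = 0.0617). The call of 1417488_at ended without 0 h replicate 1 (0.126), 0 h replicate 2 (0.0873) or 12 h replicate 1 (0.128), and 1417487_at passed without 6 h replicate 1 (0.0408) or 6 h replicate 2 (0.0418).

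Fosl2 encodes Fra-2, the other FOS-related antigen. It read 232.0 and 243.7 units at 0 h, 164.1 and 169.5 at 6 h, 165.5 and 233.3 at 12 h, and 193.1 and 217.5 at 24 h. The 6 h arrays lay below both 0 h arrays, and the 2 arrays at 12 h stood far apart. No comparison passed, and the 6 h against 0 h log2 change was -0.46 ± 0.18 (adjusted p = 0.0988).

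Atf3 encodes a stress-induced bZIP protein of the ATF/CREB family that pairs with JUN proteins and often represses. Its probe set read 216.0 and 246.7 units at 0 h, 147.9 and 182.1 at 6 h, 136.2 and 126.8 at 12 h, and 195.4 and 220.8 at 24 h. The 12 h arrays were the lowest, and 24 h overlapped 0 h. At 12 h the mean was 131.5 ± 6.65 units, against 231.4 ± 21.7 at 0 h (SD, n = 2 each), 1.65-fold lower (log2 change -0.72 ± 0.17, adjusted p = 0.0117). That call ended without 0 h replicate 2 (0.101) or 12 h replicate 2 (0.0556). The 6 h value did not pass against 0 h (-0.44 ± 0.17, adjusted p = 0.101), and 24 h against 12 h (0.58 ± 0.17, adjusted p = 0.0689) passed without 6 h replicate 1 (0.0423) or 6 h replicate 2 (0.0447).

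Egr1 encodes an immediate early zinc finger activator whose gene is switched on through the serum response factor. It read 645.2 and 601.1 units at 0 h, 658.1 and 565.1 at 6 h, 601.2 and 497.1 at 12 h, and 845.6 and 747.6 at 24 h. Both 24 h arrays lay above all others, and the arrays of the 3 earlier times overlapped. At 24 h it was 1.44-fold above 12 h (log2 change 0.52 ± 0.13, adjusted p = 0.0396). This call was lost without any 1 of the 6 arrays at 0, 12 and 24 h. It was also lost with median-centred arrays (0.0753), without the filter (0.0727) and without the variance trend (0.0869). Against 0 h the 24 h log2 change was 0.34 ± 0.13 (adjusted p = 0.0702), which passed without 6 h replicate 1 (0.046) or 6 h replicate 2 (0.0453). Against 6 h it was 0.37 ± 0.13 (adjusted p = 0.0632), which passed without 6 h replicate 1 (0.0446). With the replicate number as a block, both passed (adjusted p = 0.0277 against 0 h and 0.0242 against 6 h).

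Ier3 encodes a small stress-inducible immediate early protein that modulates cell death and ERK signalling. It read 5520.8 and 6064.4 units at 0 h, 4751.2 and 4273.4 at 6 h, 5684.3 and 5331.1 at 12 h, and 6037.9 and 5569.9 at 24 h. The 6 h arrays were the lowest, and the other times overlapped. It was 1.28-fold lower at 6 h than at 0 h (log2 change -0.36 ± 0.10, adjusted p = 0.0278) and 1.29-fold higher at 24 h than at 6 h (0.36 ± 0.10, adjusted p = 0.0205). The 6 h call ended without 0 h replicate 1, 0 h replicate 2 or 6 h replicate 2, and without the filter (0.0598). The call of 24 h against 6 h ended without 6 h replicate 2 or either 24 h array, and with median-centred arrays (0.0754). Both calls also ended without the variance trend (0.0807 and 0.0644) and with only the 2 times compared (0.0663 and 0.0607). From 6 to 12 h Ier3 moved by 0.29 ± 0.10 (adjusted p = 0.0968), which passed without 6 h replicate 1.

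Against 0 h, the calls were all lower at 6 h and 12 h and divided at 24 h. At 6 h, 0 of 11 member probe sets were higher and 4 lower (both of Jun, Jund and Ier3), where 8.65% of all tested probe sets were higher and 9.33% lower (18.0% either way). The median log2 change was -0.36, against 0.003 over all. At 12 h, 0 were higher and 4 lower (1 each of Fosl1, Jun, Jund and Atf3), where 12.1% were higher and 11.9% lower (24.0% either way), and the median was -0.29, against 0.005 over all. At 24 h, 2 were higher (Fos and 1 of Jun) and 2 lower (both of Fosl1), where 17.1% were higher and 15.8% lower (32.9% either way), so that 4 of 11 was near the background. The 6 h count was 1 without 0 h replicate 1 or 0 h replicate 2 and 2 without 6 h replicate 2. The 12 h count was 1 without 0 h replicate 1 or 0 h replicate 2 and 2 without 12 h replicate 1 or 12 h replicate 2. These 3 comparisons share their 0 h arrays.

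**Figure D2:**
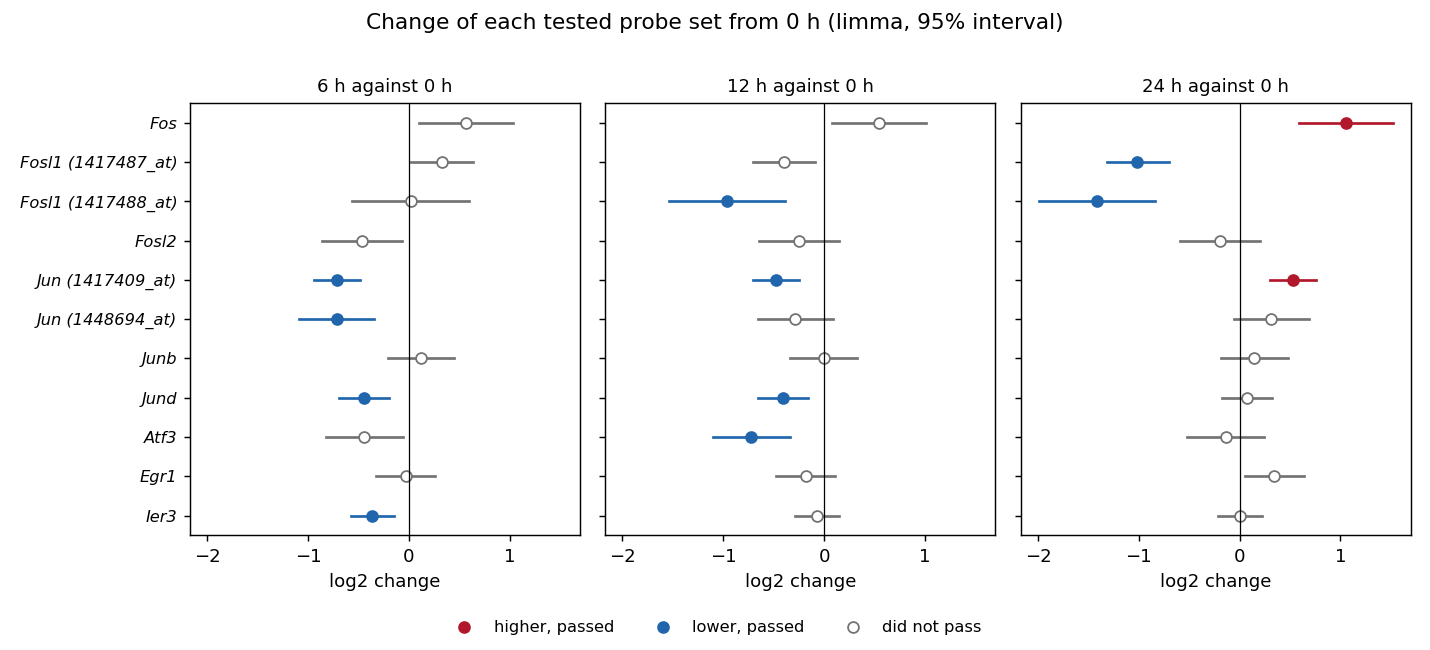
Log2 change (horizontal axes) of the 11 tested member probe sets at 6, 12 and 24 h against 0 h, with limma's 95% interval; filled red points were higher and filled blue points lower at adjusted p under 0.05, and open points did not pass. Called points lie left of 0 at 6 h and 12 h, and at 24 h Fos and 1 Jun probe set lie right of 0 and both Fosl1 probe sets left of it.

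Between later times, where no 0 h array enters the difference, the rise of Jun and the decline of Fosl1 made up most calls. At 12 h against 6 h, 0 of 11 were higher and 2 lower (both of Fosl1), where 4.61% of all were higher and 3.71% lower (8.32% either way). That count was 0 without 12 h replicate 2, and 1 without either 0 h array, 6 h replicate 2 or 12 h replicate 1. At 24 h against 12 h, 3 were higher (1 of Jun, Jund and Egr1) and 1 lower (1 of Fosl1), where 3.77% were higher and 3.11% lower (6.88% either way). Jund (log2 change 0.48 ± 0.11, adjusted p = 0.029), Egr1 and Fosl1 (1417487_at, -0.62 ± 0.14, adjusted p = 0.0261) each lost this call without any 1 of the 6 arrays at 0, 12 and 24 h, which left Jun alone. At 24 h against 6 h, 4 were higher (both of Jun, Jund and Ier3) and 2 lower (both of Fosl1), where 13.6% were higher and 11.3% lower (24.9% either way), and the median was 0.36, against 0.009 over all.

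**Figure D3:**
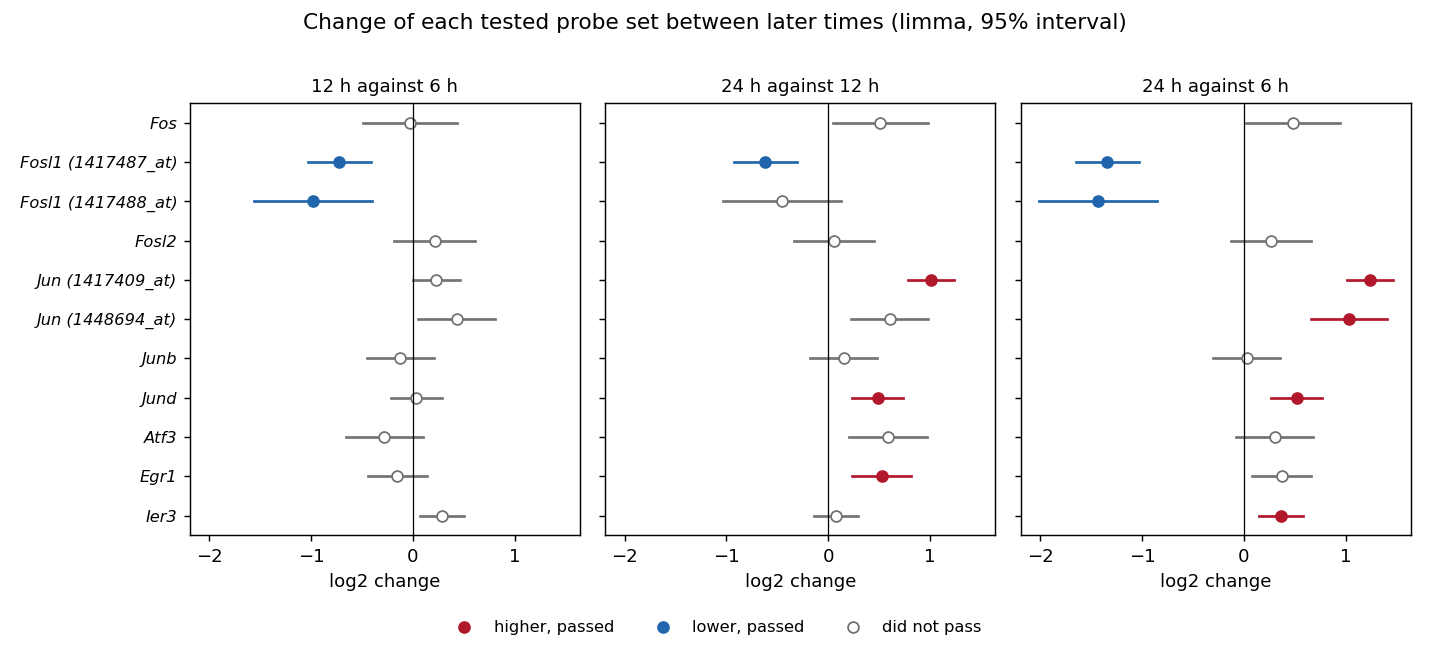
Log2 change (horizontal axes) of the 11 tested member probe sets at 12 h against 6 h, 24 h against 12 h and 24 h against 6 h, with limma's 95% interval and colours for higher (red), lower (blue) and not passed (open) at adjusted p under 0.05. Fosl1 lies left of 0 in all 3 panels, and Jun lies right of 0, past 1 on the log2 scale at 24 h against 6 h.

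The spread of the time means was widest for the probe sets of Fosl1, Jun and Fos among those tested. The highest time mean was 2.68 times the lowest for Fosl1 (1417487_at), 2.41 and 2.1 for the Jun probe sets and 2.38 for Fos. For Fosl1 (1417488_at) the ratio was 3.11, but its lowest mean, 70.8 ± 35.1 units at 24 h (SD, n = 2), lay below the filter level of about 74 units and its arrays stood far apart. No ratio is given for Fosb, whose 0 h mean was 24.1 units. It was 1.76 for Atf3, 1.45 for Egr1, 1.44 for Jund, 1.43 for Fosl2, 1.29 for Ier3 and 1.13 for Junb. These ratios compare intensities within a probe set, and the order among close neighbours was not tested.

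Relatives of the members from lists of bZIP factors, EGR relatives, upstream kinases, other immediate early genes and known targets were counted by gene, taking the brightest probe set of each. Over all 7707 tested genes, 9.15% were higher and 9.33% lower at 6 h against 0 h, 13.3% and 12.0% at 12 h, and 18.6% and 16.6% at 24 h. Of 16 tested bZIP factors, 4 were higher and 0 lower at 6 h, 5 and 1 at 12 h, and 5 and 1 at 24 h. The 6 h count was 1 without 0 h replicate 1, the 24 h count of higher genes was 8 without 6 h replicate 1, and the lower count at 12 h and at 24 h was 0 without 0 h replicate 1. At 12 h it was 0, too, if 12 h replicate 1 was left out, but 2 if 12 h replicate 2 was, and at 24 h it was 0 without either 24 h array. At 24 h against 0 h, Cebpd, a C/EBP factor of growth arrest and acute phase responses, was 4.89-fold higher (log2 change 2.29 ± 0.16). Nfe2l2, which encodes the antioxidant factor NRF2, was 2.55-fold higher (1.35 ± 0.11), and Cebpb, a C/EBP factor of differentiation, was 1.85-fold higher (0.89 ± 0.10).

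Among other bZIP factors, Ddit3, the stress factor CHOP, was 1.52-fold higher at 24 h than at 0 h (log2 change 0.60 ± 0.11). Atf5 was 1.75-fold higher at 6 h (0.81 ± 0.15, adjusted p = 0.00449, but 0.0594 without 0 h replicate 1). Maff, a small Maf protein, was 1.93-fold lower at 12 h (-0.95 ± 0.22, adjusted p = 0.00985, but 0.0849 without 0 h replicate 1 and 0.055 without 12 h replicate 1). Atf4, a translationally controlled stress factor, was 1.26-fold lower at 24 h (-0.34 ± 0.10, adjusted p = 0.0191), a call lost without 0 h replicate 1 (0.189), 24 h replicate 1 (0.0844) or 24 h replicate 2 (0.102), and its other probe set gave -0.084 and did not pass. The AP-1 repressor Jdp2 differed by 0.04 ± 0.13 at 24 h (adjusted p = 0.851), and Batf did not pass the filter.

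Of 4 tested EGR relatives and NAB corepressors, 0 were higher and 1 lower at 6 h against 0 h, and 0 and 0 at 12 h. At 24 h against 0 h, 1 was higher and 0 lower. Nab2, an EGR1-induced corepressor of EGR1, was 1.48-fold higher (log2 change 0.57 ± 0.15, adjusted p = 0.0129), a call lost without 0 h replicate 1 (0.104) or 24 h replicate 2 (0.0925). Nab1, its paralog, differed by -0.02 ± 0.14 (adjusted p = 0.951) and Egr3 by -0.49 ± 0.32 (adjusted p = 0.269), while Egr2 did not pass the filter. Of 17 upstream kinases and serum response factors, 2 were higher and 3 lower at 6 h against 0 h, and 1 and 4 at 12 h. At 24 h against 0 h, 2 were higher and 5 lower. The higher count was 1 without either 0 h array, either 12 h array or 24 h replicate 2, and the lower count was 3 without 0 h replicate 2 or 24 h replicate 1.

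In the upstream list, Map2k6, a kinase that activates p38, was 2.89-fold higher at 24 h than at 0 h (log2 change 1.53 ± 0.19), with a 0 h mean of 48.3 units, below the filter level. Cops5, a signalosome subunit known as a c-Jun coactivator, was 1.74-fold lower (-0.80 ± 0.14), and Mrtfa, a coactivator of the serum response factor, was 1.56-fold lower (-0.64 ± 0.12). Mapk8, the kinase JNK1, was 1.97-fold lower at 6 h (-0.98 ± 0.17) on its brighter probe set, while the other gave -0.61 and did not pass. The brighter one was also called lower than at 0 h at 12 h (-0.896, adjusted p = 0.00305) and 24 h (-0.707, adjusted p = 0.00775). Its 24 h call was lost without 0 h replicate 2 or 24 h replicate 1. The other probe set gave -0.046 and -0.313 there and did not pass. Srf, the serum response factor, was 1.58-fold lower at 6 h (-0.66 ± 0.15, adjusted p = 0.0111), a call lost without 0 h replicate 1 (0.0542) or 0 h replicate 2 (0.1), and its other probe set gave 0.19 and did not pass. Map2k3, another p38 kinase kinase, was 1.33-fold lower at 24 h (-0.41 ± 0.09, adjusted p = 0.00622, but 0.0559 without 24 h replicate 1). At 6 h it was called higher (0.32 ± 0.09, adjusted p = 0.0343), a call lost without either array of 0, 6 or 24 h.

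Of 34 tested other immediate early genes, 6 were higher and 6 lower at 6 h against 0 h, and 6 and 9 at 12 h. At 24 h against 0 h, 11 were higher and 10 lower, with a median log2 change of 0.04, against 0.018 over all genes. The higher count was 7 without 0 h replicate 1 or 24 h replicate 2. The antiproliferative genes Btg2 and Btg1 were 4.22-fold (log2 change 2.08 ± 0.14) and 2.63-fold (1.40 ± 0.13) higher. Ccn2 and Ccn1, which encode secreted matrix-associated proteins, were 5.44-fold (-2.44 ± 0.10) and 2.46-fold (-1.30 ± 0.11) lower. Gadd45g, a growth arrest and DNA damage gene, was 2.49-fold lower (-1.31 ± 0.12) at 24 h but called higher at 6 h (0.53 ± 0.12, adjusted p = 0.0141), a 6 h call lost without 0 h replicate 1 (0.0975) or 0 h replicate 2 (0.0845). Klf6, a zinc finger factor, was 1.64-fold lower at 24 h (-0.71 ± 0.12) and 2.29-fold lower at 12 h (-1.20 ± 0.12).

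Known AP-1 targets were called in both directions. Of 23 tested, 7 were higher and 1 lower at 6 h, 7 and 3 at 12 h, and 10 and 6 at 24 h, all against 0 h, and the median log2 changes were 0.06, 0.126 and 0.235, against 0.009, 0.019 and 0.018 over all genes. The lower call at 6 h, that of the adhesion receptor Cd44 (log2 change -0.33 ± 0.10, adjusted p = 0.0416), is named after its values were seen. It was lost without any 1 of the arrays other than 6 h replicate 2. The other Cd44 probe set gave -0.417 at 6 h and was called lower, too. Both Cd44 probe sets were called lower at 12 h (-0.859 and -0.726) and at 24 h (-0.994 and -0.972). Over 0, 6, 12 and 24 h the collagenase Mmp13 averaged 107.7, 578.8, 368.2 and 804.6 units, 6.39-fold higher at 24 h than at 0 h (log2 change 2.68 ± 0.16). The stromelysin Mmp10 averaged 68.4, 283.1, 354.5 and 734.4 units in the same order, 8.41-fold higher at 24 h (3.07 ± 0.18). Its 0 h mean lay below the filter level of about 74 units, so that the size of this fold depends on the offset. Tnc, the matrix protein tenascin-C, was 2.37-fold higher (1.24 ± 0.19), and Plin2, a lipid droplet coat protein, was 2.36-fold higher (1.24 ± 0.10). The protease inhibitor Timp1 was 2.85-fold lower (-1.51 ± 0.11) and the urokinase receptor Plaur 2.63-fold lower (-1.39 ± 0.11).

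Of 10 tested known EGR1 targets, 3 were higher and 3 lower at 6 h against 0 h, and 3 and 3 at 12 h. At 24 h against 0 h, 3 were higher and 2 lower. The higher count was 1 without 24 h replicate 1, and the lower count was 1 without 0 h replicate 1 or 24 h replicate 2. Cdkn1a, the cell cycle inhibitor p21 and also a p53 target, was 9.63-fold higher (log2 change 3.27 ± 0.09). Fn1, the matrix protein fibronectin, was 2.35-fold lower (-1.23 ± 0.09). The growth factor gene Pdgfa was 1.79-fold higher (0.84 ± 0.19, adjusted p = 0.00547, but 0.0524 without 0 h replicate 2 and 0.0603 without 24 h replicate 1). Thbs1, which encodes thrombospondin-1, was 1.35-fold lower (-0.43 ± 0.11, adjusted p = 0.00924, but 0.0891 without 0 h replicate 1 and 0.103 without 24 h replicate 2). Its other probe set gave -0.124 at 24 h and did not pass. At 6 h and 12 h the brighter probe set gave -1.03 and -1.09, and both probe sets passed. The death receptor gene Tnfrsf10b was 1.75-fold higher (0.81 ± 0.26, adjusted p = 0.0322), a call lost without 0 h replicate 1 (0.257), 24 h replicate 1 (0.119) or 24 h replicate 2 (0.125).

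**Figure D4:**
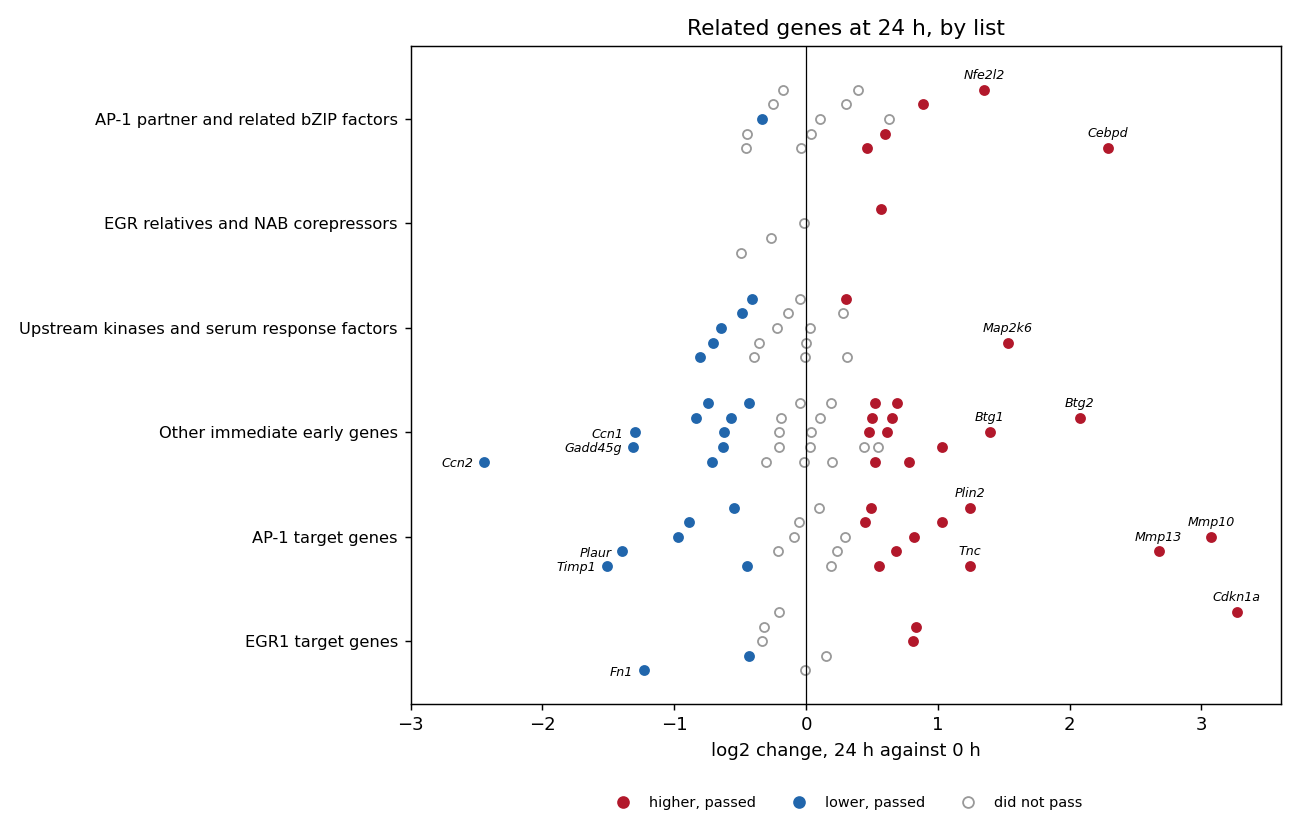
Log2 change at 24 h against 0 h (horizontal axis) of the tested genes of 6 related lists (rows), 1 point per gene by its brightest probe set, red for higher and blue for lower at adjusted p under 0.05 and open where not passed; points are shifted vertically for display only. Mmp10, Mmp13 and Cdkn1a lie farthest right and Ccn2 farthest left.

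The genes whose 3 log2 changes from 0 h came closest to those of Fos and Fosl1 were found among 7698 tested non-member genes, by the root mean square difference. For Fos they were Irf2 (0.067), Zfp532 (0.072) and Fam160a2 (0.085), and Irf2 changed by 0.49, 0.46 and 1.05 at 6, 12 and 24 h. For Fosl1 (1417487_at) they were Srm (0.103), Ptprd (0.113) and Tcof1 (0.115), and Srm changed by 0.28, -0.55 and -0.95. With 3 changes per gene that share the 0 h arrays, such likeness is a description only.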

How the data were processed

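Biotin-labelled cRNA from total RNA of TTE3 cells was measured on Affymetrix 430A arrays, with 1 array for each sample, per the labels. The deposited values are linear probe set intensities from 0.1 to 38130.2. The software behind them is not given in the sources used here. A mean after trimming 2% of values at each end was 500.18 to 500.2 on every array, so the deposited intensities are scaled, and changes in total mRNA per cell are not visible.

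Samples were grouped by the hours in their titles. After leaving out 64 control probe sets, values were taken as log2(intensity + 21.9), the offset being the 20th percentile of all values, so that log2 changes and the folds made from them understate those of dim genes. Those averaging below 6.584 on that scale (the 40th percentile, about 74 units) were removed, and 13576 remained. All 8 arrays entered 1 model in limma 3.58.1 (R 4.3.3; lmFit, eBayes with trend; 4 residual and 7.22 prior degrees of freedom). Times were compared with moderated contrasts, 2-sided, and the F-test, adjusted by Benjamini-Hochberg over the 13576 probe sets and called under 0.05.

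Symbols come from the platform annotation, updated through gene identifiers against RefSeq (GRCm38.p6), with 20351 of 20380 probe sets with 1 symbol matched; 691 with several and 1555 unnamed were not named. All member probe sets are described. From each list, up to 6 genes with the largest change from 0 h among those called in the F-test were named, plus Srf, Nab1, Nab2, Egr2, Egr3, Jdp2, Batf, Ddit3 and Atf4. Members and lists were chosen with earlier results of these data known. The alternatives were offsets at the 10th and 40th percentiles, no filter, a filter at the 60th percentile, quantile normalization, median-centred arrays, no variance trend, a replicate block, each array left out, and only the 2 times compared.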

Additional observations from a re-analysis of the deposited data

How the results depend on the processing

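Of 66 comparisons of member probe sets, 24 were called and 10 of these kept their call in every alternative run. They were Jun (1417409_at) in 4 comparisons (6 h and 24 h against 0 h, 24 h against 12 h and against 6 h), Jun (1448694_at) at 24 h against 6 h, Fos at 24 h against 0 h, and both Fosl1 probe sets at 24 h against 0 h and against 6 h. The filter at the 60th percentile removed some of them and gave no value there. The other 14 lost the call in some alternative, 10 uncalled comparisons gained one, and 0 reversed.

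Without the filter the F-test called 5 member probe sets in place of 9. With the filter at the 60th percentile, 2 in place of 4 were called at 12 h and at 24 h against 0 h and 1 in place of 2 at 12 h against 6 h, where fewer members were tested. For 12 h against 6 h the member count was also 1 with the offset at the 10th percentile, without the filter or without the variance trend, and 0 with only the 2 times compared. For 24 h against 12 h it was 1 in place of 4 without the filter or the variance trend. Over all probe sets, 12 h against 6 h gave 1130 calls, 644 without the filter, 606 without the trend and 240 with only the 2 times. For 24 h against 12 h it was 934, 529 and 369. The cause of these moves was not tested.

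Leaving out 1 array at a time, the F-test called 3301 to 6604 probe sets (5447 with all arrays) and 5 to 9 member probe sets. Over all probe sets the ranges were 835 to 2998 at 6 h, 1519 to 4147 at 12 h and 2598 to 5201 at 24 h, all against 0 h, 323 to 1547 at 12 h against 6 h, 84 to 1650 at 24 h against 12 h and 1737 to 3829 at 24 h against 6 h. For member probe sets they were 1 to 4, 1 to 5, 4 to 5, 0 to 3, 1 to 6 and 4 to 7 in the same order.

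Same-numbered arrays deviated together with correlations of 0.05 to 0.18, not all above 0.1, so the numbers were not taken as pairs. With the replicate block, 5982 probe sets and 9 member probe sets passed the F-test, and the block added Egr1 at 24 h against 0 h (0.0277) and against 6 h (0.0242) and ended no member call. Median-centring moved the share of higher calls at 24 h against 0 h to 37.5%, against 52.0% as deposited. At 12 h against 0 h it moved to 40.4% against 50.5%, and at 6 h against 0 h to 43.4% against 48.1%. The share moved to 45.6% against 55.4% at 12 h against 6 h, and to 42.2% against 54.8% at 24 h against 12 h. For 24 h against 6 h it moved to 40.5% against 54.7%. Precision is limited by 2 arrays per time, and Fos at 0 h, Fosb, and Fosl1 (1417488_at) at 24 h are dim.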
